A study of Mus musculus with 15 samples.

Results

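The matrix proteases and their inhibitors described here are 10 genes, chosen by name: the matrix metalloproteinase genes *Mmp2*, *Mmp3*, *Mmp13* and *Mmp14*, the aggrecanase-type genes *Adamts1*, *Adamts4* and *Adamts5*, and the inhibitor genes *Timp1*, *Timp2* and *Timp3*. They are 10 of 55266 genes in the deposited counts, and 7 of the 10 passed the filter on low counts that left 10603 genes for testing. RNA was sequenced from NIH3T3, an established line of mouse embryonic fibroblasts, in 5 groups of 3 libraries. The groups were H2A-TerminaTOR cells given cycloheximide and PDGF, and H2A-mCherry cells given cycloheximide and PDGF, rapamycin and PDGF, PDGF alone, or no PDGF. Both lines carry a doxycycline-inducible fusion to histone H2A, stably integrated. TerminaTOR is a genetically encoded inhibitor of mTORC1, the kinase complex that ties growth to growth factors and nutrients, and the histone holds it in the nucleus; mCherry, a fluorescent protein, is its control. The cells were starved before PDGF, a growth factor for fibroblasts, was added. Rapamycin is a drug that blocks mTORC1 anywhere in the cell; cycloheximide stops protein synthesis. Doses, times, the length of starvation and whether each line is a single clone are not stated in the labels. TerminaTOR cells were sequenced only with cycloheximide and PDGF, so the nuclear inhibitor was compared with its control on that background alone.

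Matrix metalloproteinases are zinc-dependent enzymes that fibroblasts secrete, or anchor at their surface, as inactive precursors and that together cut collagens, gelatin and most other matrix proteins. The ADAMTS enzymes among the members are secreted relatives that cut the large proteoglycans aggrecan and versican. TIMP proteins bind the active site and block it, so the balance of enzyme and inhibitor sets how fast matrix is turned over. MMP14 sits in the plasma membrane and activates the precursor of MMP2, a gelatinase, with TIMP2 as the bridge between the enzyme and the precursor. MMP13 (collagenase 3) and MMP3 (stromelysin 1) are little made in resting fibroblasts and are known as genes induced by inflammatory cytokines and AP-1.

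Libraries held 3466202 to 6777780 counts, and the share taken by mitochondrial genes moved with the groups. It was 6.32% to 6.63% in TerminaTOR cells, 6.28% to 6.64% with cycloheximide and PDGF, 9.85% to 11.04% with rapamycin and PDGF, 8.69% to 9.29% with PDGF alone and 11.1% to 12.2% without PDGF, and its part in the results was not tested. Levels are given as CPM, reads scaled to library totals adjusted with edgeR's TMM factors (trimmed mean of M-values). Reads were counted per transcript, and how reads on bases shared by several transcripts were treated is not stated. Levels in CPM are therefore tested only within a gene. Sums over marker lists, and genes called abundant or making up most of a sum, describe counted reads only. The labels do not say whether replicates are separate cultures; p-values measure the spread between these libraries, which may be technical. In bulk RNA, fewer cells that express a gene and less RNA per cell cannot be told apart. Of 11 fibroblast markers, 10 or 11 had at least 10 reads in each group, and their summed level was 8628 to 9160.1 CPM in TerminaTOR cells, 7589 to 7937 CPM with cycloheximide and PDGF, 4741 to 5133 CPM with rapamycin and PDGF, 7339 to 7658 CPM with PDGF alone and 8445 to 8539 CPM without PDGF. Most of that sum was *Col1a1* and *Col1a2*. With rapamycin against PDGF alone, 3 of 10 tested markers were called higher, among them *Dcn* and *Pdgfra*, and 5 lower. Of all genes, 16.3% were called higher there and 16.1% lower. The 8 macrophage markers summed to 60.7 to 72.0 CPM in TerminaTOR cells, 61.8 to 78.0 CPM with cycloheximide, 18.1 to 20.4 CPM with rapamycin, 17.6 to 19.5 CPM with PDGF alone and 7.09 to 12.0 CPM without PDGF, with *Fcgr1* the most abundant over all libraries; the endothelial and epithelial lists stayed at or below 4.73 and 4.14 CPM. The macrophage markers *Adgre1* and *Itgam*, the epithelial markers *Epcam*, *Krt18* and *Krt19*, the endothelial marker *Cldn5* and the bone markers *Sp7* and *Ibsp* had 0 reads in every library. Since the treatment of reads on shared bases is not stated, a count of 0 does not show that a gene was silent. TerminaTOR itself cannot be checked, because the counted transcripts are those of the mouse.

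The members differ in how many of their bases belong to a single transcript. *Adamts5* (chr16:85856173-85901828, minus strand), *Mmp13* (chr9:7272514-7283331, plus strand) and *Mmp3* (chr9:7445822-7455975, plus strand) have 1 annotated transcript each, with all 10791, 2673 and 1801 exonic bases specific to it. *Mmp2* (chr8:92827291-92853420, plus strand) has 2136 of 3371 exonic bases in a single transcript, *Mmp14* (chr14:54431612-54445364, plus strand) 3955 of 5960, *Adamts1* (chr16:85793827-85803113, minus strand) 3203 of 5302 and *Timp2* (chr11:118301069-118355740, minus strand) 3365 of 3896. *Timp3* (chr10:86300372-86349506, plus strand) lies inside *Syn3*, and 1733 of its 8144 exonic bases are shared with exons of that gene. In these abundant genes the top transcript held at least 96.66% of the reads. *Timp1* (chrX:20870166-20874735, plus strand), which lies inside *Syn1*, has 60 such bases of 888, and *Adamts4* (chr1:171250421-171260637, plus strand) 423 of 4810. Coordinates are on GRCm38.

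The promoters of *Mmp13* and *Mmp3* are shown because these genes had reads together in the rapamycin libraries. Each sequence is the 250 bases before the gene's start on the plus strand of GRCm38.p6, from RefSeq, at chr9:7272264-7272513 for *Mmp13* and chr9:7445572-7445821 for *Mmp3*, and capitals mark matches to TGANTCA, the letters that AP-1 is known to bind.
Mmp13: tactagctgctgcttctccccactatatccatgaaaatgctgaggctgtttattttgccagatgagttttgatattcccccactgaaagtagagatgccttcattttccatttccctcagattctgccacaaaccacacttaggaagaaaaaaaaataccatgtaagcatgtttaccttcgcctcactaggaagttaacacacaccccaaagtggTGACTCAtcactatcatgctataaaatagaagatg
Mmp3: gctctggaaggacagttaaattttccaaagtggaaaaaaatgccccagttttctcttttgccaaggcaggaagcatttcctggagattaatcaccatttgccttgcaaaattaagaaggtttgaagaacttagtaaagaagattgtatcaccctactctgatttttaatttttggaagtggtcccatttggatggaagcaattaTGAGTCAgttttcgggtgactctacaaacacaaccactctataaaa
Both hold 1 match, on either strand, whose first base lies 35 bases before the start in *Mmp13* and 46 before it in *Mmp3*. Both also hold a match to the TATA box letters TATAAA, and to AGGAAG, a core bound by ETS factors (2 matches in *Mmp13*, 1 in *Mmp3*), and neither holds GGGCGG, the Sp1 box. The letters TGANTCA occur in 6.73% of the 32536 promoters of that length, TATAAA in 12.3%, AGGAAG in 29.6% and GGGCGG in 33.0%, counting both strands; the motifs do not overlap. Promoters of 7 of the 10 members were in the table used. Those of *Mmp14*, *Adamts1*, *Timp1*, *Timp2* and *Timp3* held no TGANTCA and 1 to 3 matches to GGGCGG. Among them *Adamts1* held 1 match to TATAAA, and *Mmp14*, *Timp1* and *Timp3* held 1, 2 and 1 matches to AGGAAG. *Timp2* held neither. A match describes the letters and does not show that a factor binds there.

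*Mmp13* and *Mmp3* had reads almost only with rapamycin and PDGF. *Mmp13* had 18, 37 and 43 reads in the rapamycin libraries, against 0 in each library with PDGF alone, and 1, 0 and 0 without PDGF. With cycloheximide and PDGF it had 2, 1 and 2 reads in TerminaTOR cells and 1, 0 and 0 in mCherry cells. The rapamycin libraries therefore stood apart from the other 12, none of which had more than 2 reads. Its level with rapamycin was 5.01, 11.4 and 10.2 CPM, a mean of 8.87 ± 3.39 (SD, n = 3). Against PDGF alone it was at least 36.4-fold higher, taking 3 counts, summed over its libraries, as the limit that a count of 0 allows (edgeR quasi-likelihood test with Benjamini-Hochberg adjustment over 10603 genes, adjusted p = 3.77e-09). Against no PDGF, the ratio of 98 reads to 1 was 137, with an exact 95% counting interval of 24.0 to 5460 (edgeR adjusted p = 1.28e-09). TerminaTOR cells had 5 reads against 1 in mCherry cells, a ratio of 4.74 with an interval of 0.531 to 224 (edgeR adjusted p = 0.523). No change was called, and with so few reads neither a modest rise nor a fall could be seen. The TerminaTOR level, 0.373 ± 0.213 CPM (SD, n = 3), lay below that of every rapamycin library. *Mmp13* passed the count filter only through its rapamycin libraries, so its adjusted p-values with rapamycin are not independent support for the rise. It is left out of the counts of members called that follow, which are over the 6 other tested members. PDGF alone and no PDGF, with 0 and 1 reads, were both under that limit. Intervals and floors cover counting error only, because the reads carry no molecular identifiers.

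*Mmp3* had 8, 5 and 9 reads with rapamycin and PDGF, against 0, 0 and 1 with PDGF alone and 0, 0 and 3 without PDGF. It had 0 reads in each TerminaTOR library and 0, 1 and 0 in mCherry cells with cycloheximide. The rapamycin libraries were again the 3 highest, with no overlap with any other group. Its 22 reads against 1 with PDGF alone gave a ratio of 24.5 (95% counting interval 3.97 to 1013), and against the 3 reads without PDGF a ratio of 10.2 (3.08 to 53.4). The gene was below the count filter. When all 28380 genes with a read were fitted, edgeR's adjusted p was 0.0352 against PDGF alone and 0.0562 against no PDGF. *Mmp13* and *Mmp3* lie 162490 bases apart in a group of 10 metalloproteinase genes on chromosome 9. Of the other 8, *Mmp10* alone had reads, 3 with rapamycin, 2 in TerminaTOR cells and 1 with PDGF.

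**Figure D1:**
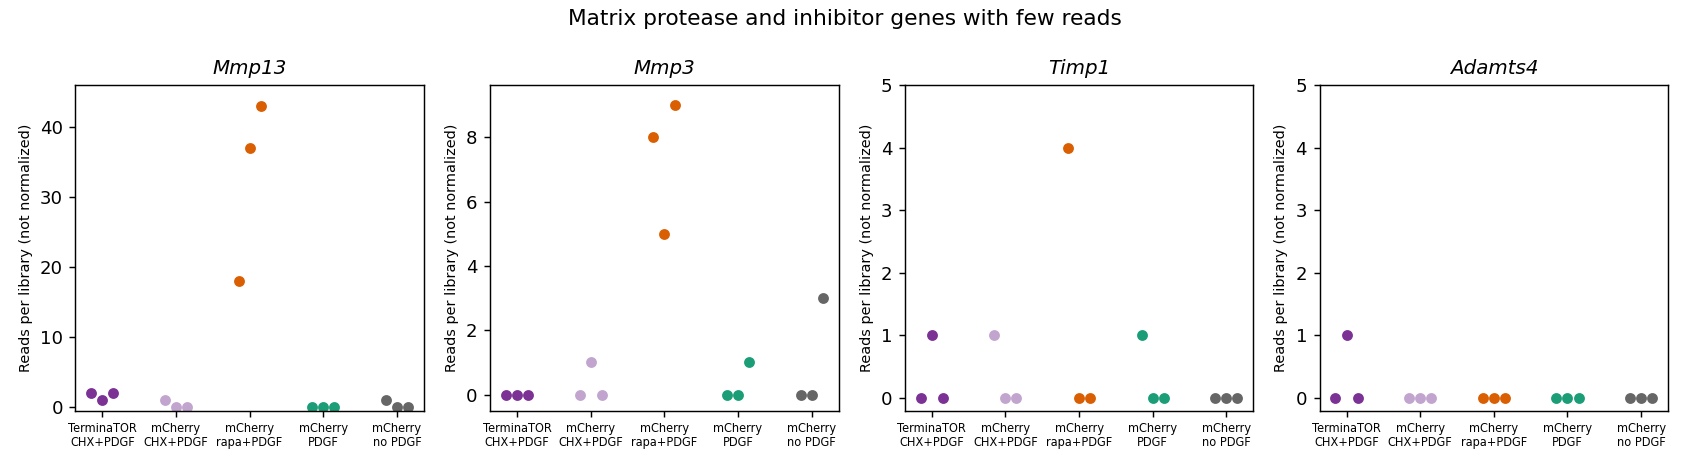
Reads per library, not normalized, for the 4 genes with few reads; each point is a library, 3 per group, with TerminaTOR cells at the left and cells without PDGF at the right (CHX, cycloheximide; rapa, rapamycin). *Mmp13* reached 18 to 43 reads and *Mmp3* 5 to 9 with rapamycin and PDGF, while *Timp1* never passed 4 and *Adamts4* never passed 1.

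The genes whose levels over the 15 libraries were most like that of *Mmp13*, among 5071 expressed genes, were *Csf3* and *Icam1* (Pearson r of log2 CPM 0.977 and 0.974), a description that rests on the 3 rapamycin libraries. *Sox9* and *Runx2*, cartilage and bone regulators, were also higher with rapamycin. *Sox9* was at 1757 ± 138 CPM with rapamycin against 604 ± 39.3 CPM with PDGF alone, and *Runx2* at 21.4 ± 10.9 against 11.2 ± 0.759 CPM (SD, n = 3). In TerminaTOR cells both were lower than in mCherry cells with cycloheximide, *Sox9* at 321 ± 24.4 against 456 ± 31.1 CPM and *Runx2* at 3.34 ± 0.208 against 7.26 ± 2.48 CPM. *Sox9* was also higher with PDGF alone than without (604 ± 39.3 against 267 ± 8.62 CPM). The summed level of the 8 cartilage and bone markers was 1686 to 1937 CPM with rapamycin and 578 to 656 CPM with PDGF alone. *Sox9* made up nearly all of it, and *Col2a1* had 1 read in all. The part of these markers in the *Mmp13* result was not tested.

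Among AP-1 subunit genes, all 7 tested were higher with PDGF than without (median log2 change 3.28, against −0.01 over all genes), and all 7 were higher again with cycloheximide and PDGF than with PDGF alone (median 2.97, against 0.01). Of all genes, 20.1% were called higher in the PDGF comparison and 21.0% in the cycloheximide comparison. *Jun* was at 6603 ± 288 CPM with PDGF and 239 ± 42.3 CPM without (log2 change 4.79 ± 0.12 SE, edgeR adjusted p = 8.2e-13). *Fos* was at 4859 ± 463 CPM with cycloheximide and PDGF, against 139 ± 6.24 CPM with PDGF alone. *Mmp13* had 0 or 1 read in each of these groups. The AP-1 levels are of RNA, and cycloheximide stops protein synthesis. The part of AP-1 in the *Mmp13* result was not tested. With rapamycin 2 AP-1 genes were higher and 4 lower than with PDGF alone, where 16.3% of all genes were called higher and 16.1% lower. *Fosl1* rose 2.68-fold and *Junb* 1.59-fold, while *Jund* and *Fosb* fell by 1.08 and 0.99 on the log2 scale. In TerminaTOR cells *Jund* and *Fosl2* were lower than in mCherry cells, by log2 changes of −0.23 and −0.17, and none was higher. There 2.57% of all genes were called lower and 2.35% higher.

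PDGF lowered 4 of the 6 members and raised none: *Adamts5*, *Mmp2*, *Timp2* and *Mmp14*. Over all genes 37.0% were called in this comparison and 16.9% were called lower, against 20.1% called higher. The question it answers is what the growth factor does in starved control cells. The median log2 change of the 6 members was −0.29. Changes are relative to TMM scaling, under which the median of all genes stayed between −0.01 and 0.02 in each comparison. With library-size scaling that median moved to −0.26 for PDGF, −0.10 for rapamycin, −0.13 for cycloheximide and 0.03 for TerminaTOR, and the share of called genes that were higher was 30.7%, 35.7%, 39.0% and 60.5%, in place of 54.3%, 50.3%, 51.8% and 47.7%.

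*Adamts5*, the main aggrecanase of mouse cartilage, had the largest fall among the called members with PDGF. It was at 572, 544 and 499.6 CPM with PDGF, against 1281, 1183 and 1265 CPM without. Every PDGF library was below every library without PDGF, by a log2 change of −1.21 ± 0.07 SE, or 2.31-fold (edgeR adjusted p = 3.73e-22). With rapamycin and PDGF it was at 358, 406 and 406 CPM, lower than with PDGF alone by a log2 change of −0.46 ± 0.07 (edgeR adjusted p = 1.33e-07). With cycloheximide and PDGF it stood between those levels and the level without PDGF, at 846, 707 and 714 CPM. That was 1.40-fold above PDGF alone (edgeR adjusted p = 1.55e-08) and 1.65-fold below no PDGF (edgeR adjusted p = 6.82e-14). TerminaTOR cells had 842, 772 and 709 CPM, which overlapped the mCherry cells with cycloheximide. The difference between them was 0.04 on the log2 scale, with a 95% interval of −0.09 to 0.17 (edgeR adjusted p = 0.845).

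**Figure D2:**
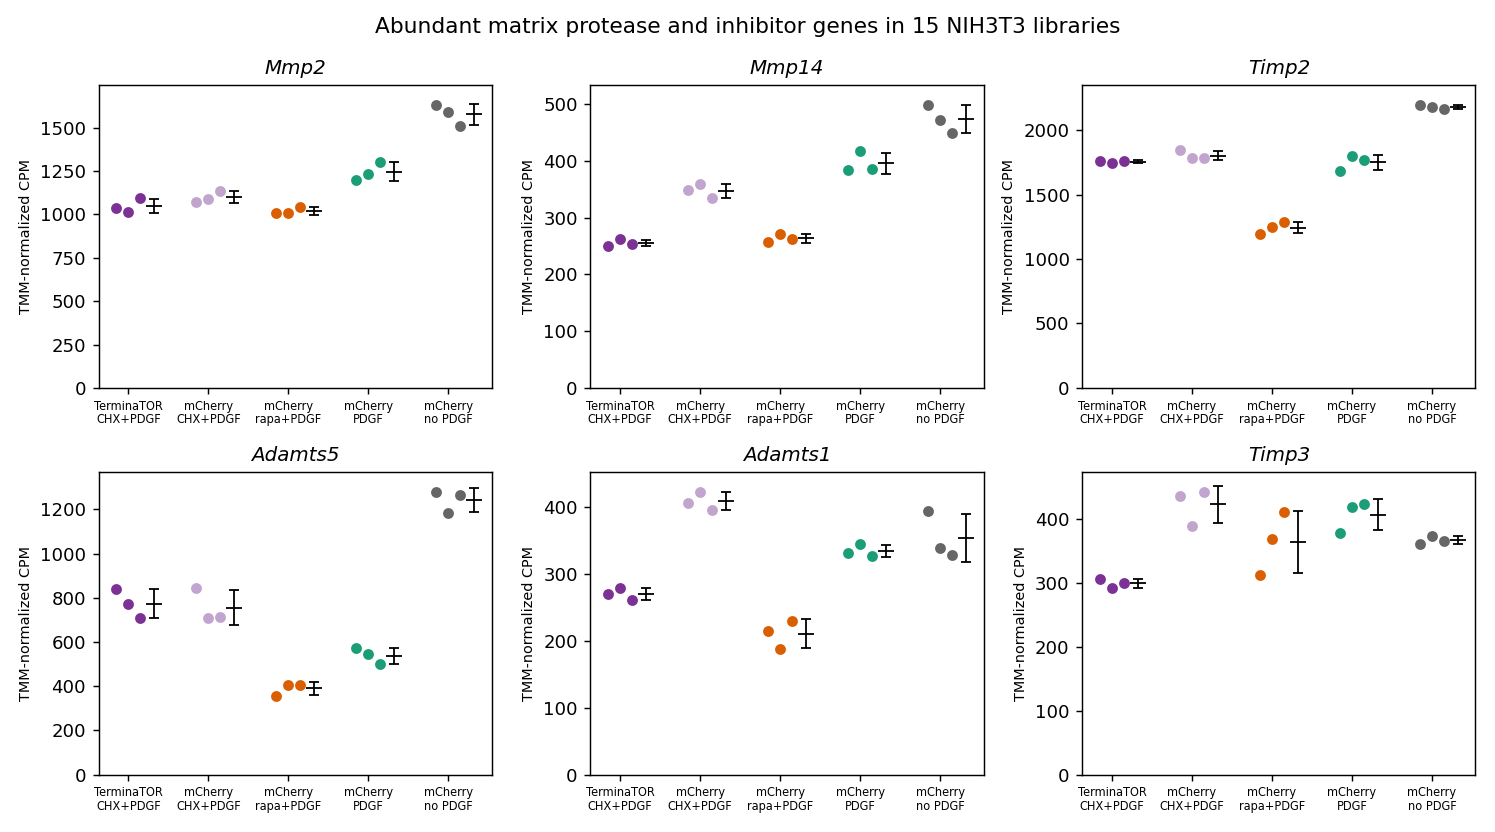
TMM-normalized CPM of the 6 abundant genes in the 15 libraries; points are libraries, and the bar beside each group gives its mean ± SD (n = 3), with axes from 0. *Adamts5* is high without PDGF (1183 to 1281 CPM), *Timp2* is lowest with rapamycin (1197 to 1288 CPM), and *Timp3* is lowest in TerminaTOR cells (292 to 306 CPM).

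*Mmp2*, *Mmp14* and *Timp2*, which encode the gelatinase, its activator and the bridging inhibitor, were all lower with PDGF. *Mmp2* had 1199, 1231 and 1305 CPM with PDGF, against 1632, 1589 and 1510.4 CPM without, and fell by 0.34 ± 0.05 SE on the log2 scale (edgeR adjusted p = 2.19e-07). *Timp2* had 1682, 1800.3 and 1764 CPM with PDGF, against 2196, 2177 and 2163 CPM without, a log2 change of −0.32 ± 0.05 (edgeR adjusted p = 4.12e-07). *Mmp14* had 383, 417 and 386 CPM with PDGF, against 499, 471 and 449 CPM without, a log2 change of −0.26 ± 0.06 (edgeR adjusted p = 0.000492). In each of these genes the libraries of the groups did not overlap, a state found for 46.2% of all genes tested in this comparison.

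*Adamts1* and *Timp3* were not called with PDGF. *Adamts1*, a protease that cuts versican and aggrecan, had 331, 345 and 326 CPM with PDGF, against 394, 338 and 328 CPM without. Its libraries overlapped, and the difference was −0.08 on the log2 scale with a 95% interval of −0.22 to 0.06 (edgeR adjusted p = 0.382). It was called lower under library-size scaling (−0.33, edgeR adjusted p = 2.87e-05). *Timp3*, an inhibitor that stays bound to the matrix and also blocks ADAMTS enzymes, had 378, 418 and 422 CPM with PDGF, against 361, 373 and 365 CPM without. These values did not overlap, and the log2 change was 0.15 ± 0.07 (edgeR adjusted p = 0.0825), and the sign turned to −0.10 under library-size scaling. Without replicate 1 of the PDGF group the change was 0.21 and was called (edgeR adjusted p = 0.0279), as it was on the compared groups alone (0.16, edgeR adjusted p = 0.0313).

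Rapamycin on top of PDGF lowered 5 of the 6 members and raised none, against 32.3% of all genes called, 16.1% lower and 16.3% higher. This comparison addresses mTORC1 inhibition in the whole cell. The 6 all had negative log2 changes, with a median of −0.48 against 0.02 over all genes, although *Timp3* was not called. *Adamts1* had 215, 188 and 229 CPM with rapamycin and PDGF, against 331, 345 and 326 CPM with PDGF alone, and fell by 0.66 ± 0.07 SE on the log2 scale (edgeR adjusted p = 3.16e-12). *Mmp14* had 257, 272 and 261 CPM with rapamycin, against 383, 417 and 386 CPM, and fell by 0.59 ± 0.06 (edgeR adjusted p = 8.12e-12). The membrane protease and the aggrecanase thus both lay below every library with PDGF alone.

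*Timp2* had 1197, 1245 and 1288 CPM with rapamycin and PDGF, against 1682, 1800.3 and 1764 CPM with PDGF alone, a log2 change of −0.49 ± 0.05 SE (edgeR adjusted p = 1.53e-12). *Mmp2* had 1008, 1006 and 1043 CPM, against 1199, 1231 and 1305 CPM, a log2 change of −0.29 ± 0.05 (edgeR adjusted p = 1.16e-05). Both genes were again without overlap, which held for 40.9% of all genes. *Timp3* had 313, 368 and 410.2 CPM with rapamycin, against 378, 418 and 422 CPM, values that overlapped (−0.16 ± 0.07, edgeR adjusted p = 0.0748). Without replicate 3 of the rapamycin group its change was −0.26 and was called (edgeR adjusted p = 0.00436), and so it was without replicate 1 of the PDGF group (−0.22, edgeR adjusted p = 0.027), under library-size scaling (−0.29) and with no filter (−0.21). Without replicate 1 of the rapamycin group it was −0.06 (edgeR adjusted p = 0.562).

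Set against no PDGF, which shares its libraries with the PDGF comparison, cells with rapamycin and PDGF had 5 of the 6 members lower and none higher (53.3% of all genes were called, 25.5% lower and 27.8% higher). *Adamts5* was 3.19-fold lower, *Mmp14* 1.80-fold, *Timp2* 1.75-fold, *Adamts1* 1.67-fold and *Mmp2* 1.55-fold. The highest edgeR adjusted p among these 5 was 7.95e-15, and all 5 were without overlap, against 56.3% of all genes. *Timp3* differed by −0.01 with a 95% interval of −0.15 to 0.13 (edgeR adjusted p = 0.924), and by −0.39 under library-size scaling, where it was called (edgeR adjusted p = 8.2e-07).

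**Figure D3:**
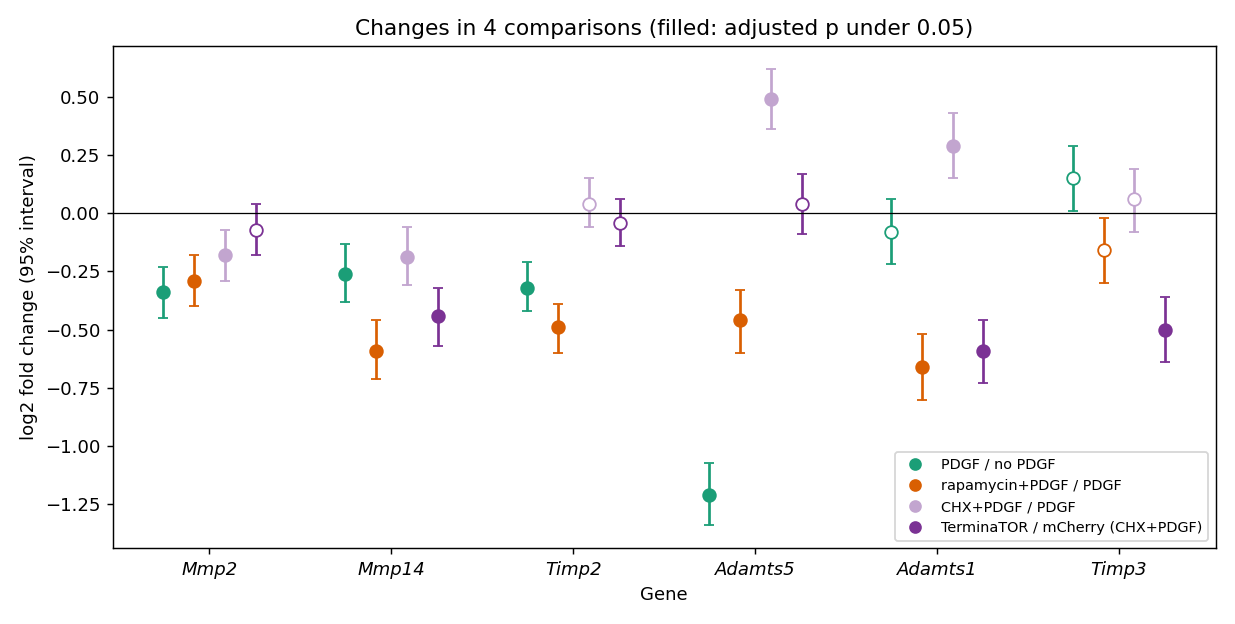
Log2 fold change with its 95% interval for the 6 abundant genes in the 4 comparisons named in the legend; filled points had an edgeR adjusted p under 0.05. *Adamts5* lies lowest with PDGF (−1.21), rapamycin points are all below 0, and the TerminaTOR points of *Mmp14*, *Adamts1* and *Timp3* lie at −0.44, −0.59 and −0.50 while those of *Mmp2*, *Timp2* and *Adamts5* lie near 0.

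Cycloheximide on top of PDGF raised *Adamts5* and *Adamts1* and lowered *Mmp14* and *Mmp2*, 4 of the 6 members, against 40.6% of all genes called, 21.0% higher and 19.6% lower. This comparison gives the background on which TerminaTOR was measured. *Adamts1* had 406, 423 and 396 CPM with cycloheximide and PDGF, against 331, 345 and 326 CPM with PDGF alone, a log2 change of 0.29 ± 0.07 SE (edgeR adjusted p = 0.000379), and 0.15 under library-size scaling, where it was not called (edgeR adjusted p = 0.0637). *Mmp14* had 348, 359 and 335 CPM, against 383, 417 and 386 CPM (−0.19 ± 0.06, edgeR adjusted p = 0.0127). That call was lost without PDGF replicate 2 (edgeR adjusted p = 0.066), without cycloheximide replicate 3 (0.0806), with the top transcript alone (0.112) and with no filter (0.0831). *Mmp2* had 1072, 1091 and 1136 CPM, against 1199, 1231 and 1305 CPM (−0.18 ± 0.05, edgeR adjusted p = 0.00533), a call lost without PDGF replicate 3 (edgeR adjusted p = 0.0675). None of these 4 genes had overlapping libraries, as was the case for 50.6% of all genes.

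*Timp2* and *Timp3* were not called with cycloheximide. *Timp2* had 1843, 1779 and 1784 CPM, against 1682, 1800.3 and 1764 CPM with PDGF alone, overlapping values with a difference of 0.04 (95% interval −0.06 to 0.15). *Timp3* had 436, 388 and 443 CPM, against 378, 418 and 422 CPM, a difference of 0.06 (−0.08 to 0.19). Both signs turned under library-size scaling, to −0.10 for *Timp2* and −0.08 for *Timp3*, and without PDGF replicate 1, to −0.01 and −0.02. Set against no PDGF, cells with cycloheximide and PDGF had *Adamts5*, *Mmp2*, *Mmp14* and *Timp2* lower, by 0.72, 0.52, 0.45 and 0.27 on the log2 scale, with 47.4% of all genes called, 22.8% lower and 24.6% higher, and 54.0% without overlap. *Adamts1* and *Timp3* were called higher, by 0.21 each, but under library-size scaling both were called lower, at −0.18. Their calls were also lost when a library was left out: for *Adamts1* without no-PDGF replicate 3 or cycloheximide replicate 2 (edgeR adjusted p = 0.0702 and 0.0669), and for *Timp3* without cycloheximide replicate 1 or 3 (edgeR adjusted p = 0.0712 and 0.0614).

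TerminaTOR lowered 3 of the 6 members, *Adamts1*, *Timp3* and *Mmp14*, and raised none, where 4.92% of all genes were called, 2.57% lower and 2.35% higher. The comparison addresses mTORC1 in the nucleus, with translation blocked in both cell lines. *Adamts1* had 270.4, 279 and 261 CPM in TerminaTOR cells, against 406, 423 and 396 CPM in mCherry cells, and fell by 0.59 ± 0.07 SE on the log2 scale, 1.51-fold (edgeR adjusted p = 1.27e-09). *Timp3* had 306, 292 and 300.2 CPM in TerminaTOR cells, against 436, 388 and 443 CPM in mCherry cells, a log2 change of −0.50 ± 0.07, 1.41-fold (edgeR adjusted p = 2.6e-07). *Mmp14* had 249.6, 261 and 254 CPM in TerminaTOR cells, against 348, 359 and 335 CPM in mCherry cells, a log2 change of −0.44 ± 0.06, 1.36-fold (edgeR adjusted p = 6.24e-07). For all 3 genes every TerminaTOR library lay below every mCherry library, as in either direction for 23.7% of all genes, and the call held in each of 14 alternative settings, with log2 changes of −0.62 to −0.56, −0.56 to −0.46 and −0.47 to −0.41. With 1 line of each kind, the inhibitor and the cell line cannot be told apart.

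*Mmp2*, *Timp2* and *Adamts5* were not called in TerminaTOR cells. *Mmp2* had 1035, 1016 and 1095 CPM in TerminaTOR cells, against 1072, 1091 and 1136 CPM in mCherry cells, overlapping values with a difference of −0.07 (95% interval −0.18 to 0.04, edgeR adjusted p = 0.576). *Timp2* had 1759, 1742 and 1762 CPM, against 1843, 1779 and 1784 CPM, lower in each TerminaTOR library but by only 0.04 on the log2 scale (interval −0.14 to 0.06, edgeR adjusted p = 0.788). *Adamts1* and *Adamts5* lie 53059 bases apart on chromosome 16.

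The effects of rapamycin and of TerminaTOR differed for 4 of the 6 members, by a test of the difference that called 24.0% of all genes. The difference is the rapamycin effect minus the TerminaTOR effect, and the comparisons behind it share no library. It was −0.50 ± 0.09 SE for *Adamts5* (edgeR adjusted p = 3.18e-05), −0.45 ± 0.07 for *Timp2* (8.11e-07) and −0.22 ± 0.08 for *Mmp2* (0.0267), which were lower with rapamycin and not called with TerminaTOR. It was 0.34 ± 0.10 for *Timp3* (edgeR adjusted p = 0.00597), which was lower with TerminaTOR and not called with rapamycin. The *Timp3* difference lost its call under library-size scaling (0.18, edgeR adjusted p = 0.169), with no filter (0.28, 0.0994) and without rapamycin replicate 3 (0.23, 0.0851), and the *Mmp2* difference was called in 15 of 20 alternatives, being lost when PDGF replicate 3, mCherry cycloheximide replicate 1 or 2, or TerminaTOR replicate 1 or 3 was left out (−0.22 to −0.19, edgeR adjusted p = 0.052 to 0.106). For *Adamts1* and *Mmp14*, lower in both comparisons, the differences were −0.07 (95% interval −0.27 to 0.13, edgeR adjusted p = 0.692) and −0.14 (−0.32 to 0.04, edgeR adjusted p = 0.287); under library-size scaling *Mmp14* was called, at −0.30. *Mmp13* was not called by edgeR (adjusted p = 0.103) and was called by DESeq2 (0.0242) and limma-voom (0.0111). It passed the count filter only through its rapamycin libraries, so these calls are not independent support for a difference. Rapamycin was given without cycloheximide and TerminaTOR was measured with it, so the inhibitor and the background cannot be told apart.

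**Figure D4:**
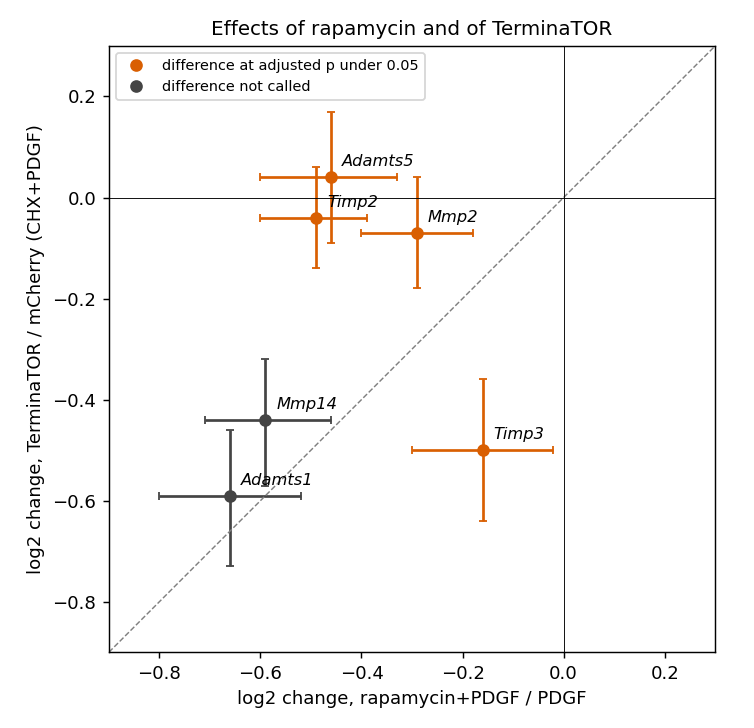
Log2 change with TerminaTOR (vertical, against mCherry, both with cycloheximide and PDGF) and with rapamycin (horizontal, against PDGF alone) for the 6 abundant genes, with 95% intervals; the dashed line marks equal effects. *Adamts1* and *Mmp14* lie close to the line, *Adamts5*, *Timp2* and *Mmp2* above it, and *Timp3* below it; orange marks a difference with an edgeR adjusted p under 0.05.

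Ordered by mean level, *Mmp2*, *Mmp14*, *Timp2* and *Adamts5* were highest without PDGF. *Mmp2* was 1577 ± 61.6 CPM there, followed by PDGF alone (1245 ± 54.2), and the TerminaTOR libraries (1048 ± 41.3) overlapped both the mCherry libraries with cycloheximide (1099.6 ± 32.9) and the rapamycin libraries (1019 ± 20.9). *Mmp14* was lowest in TerminaTOR cells (255 ± 5.96 CPM), which overlapped the rapamycin libraries (264 ± 7.50). *Timp2* and *Adamts5* were lowest with rapamycin, apart from the next group. *Adamts1* was highest with cycloheximide in mCherry cells (408 ± 13.7 CPM), its levels with and without PDGF overlapped, and it was lowest with rapamycin (211 ± 21.2). *Timp3* was lowest in TerminaTOR cells (299 ± 6.93 CPM), below the rapamycin libraries (364 ± 48.9), which overlapped those without PDGF (367 ± 6.19).

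The genes most like each member over the 15 libraries were *Tmem106b* and *Smo* for *Mmp2* (Pearson r 0.982 and 0.977), *Mfsd1* and *Smad5* for *Mmp14* (0.965 and 0.952), *Mn1* and *Tbc1d13* for *Adamts5* (0.987 and 0.981), *Afap1* and *Alkbh5* for *Timp2* (0.989 and 0.984), *Dkk2* and *Mnd1* for *Adamts1* (0.902 and 0.896) and *Hace1* and *Btbd7* for *Timp3* (0.746 and 0.744). Between members the closest were *Timp2* with *Adamts5* (r 0.92) and *Mmp2* with *Mmp14* (0.90), and *Timp3* had 0.50 or less with every other. These values describe 15 libraries in 5 groups that share treatments. On transcripts other than the top one, *Mmp14* had 1.92% to 2.78% of its reads in TerminaTOR cells, 1.55% to 2.38% with cycloheximide, 4.18% to 4.98% with rapamycin, 3.45% to 4.08% with PDGF and 3.24% to 4.29% without.

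*Timp1*, a broad inhibitor of metalloproteinases, and *Adamts4*, an aggrecanase, had almost no reads. *Timp1* had 4, 0 and 0 reads with rapamycin and PDGF and at most 1 read in any other library, and *Adamts4* had 1 read in all, in a TerminaTOR library. Few of their bases belong to a single transcript, as given above; whether that limited their counts was not tested, and no level is drawn from them.

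Other genes of matrix turnover were tested from lists. Of all genes, 20.1% were called higher and 16.9% lower with PDGF, and 16.3% and 16.1% with rapamycin. The shares were 21.0% and 19.6% with cycloheximide, and 2.35% and 2.57% with TerminaTOR. They apply to each list below. Of 19 other metalloproteinase genes 4 could be tested: none was called with PDGF, *Mmp9* (gelatinase B) rose 5.02-fold with rapamycin (34.7 ± 3.65 against 6.91 ± 0.229 CPM with PDGF alone; edgeR adjusted p = 1.61e-13), 1 rose and 1 (*Mmp28*) fell with cycloheximide, and none was called with TerminaTOR. Of 21 other ADAMTS and ADAMTS-like genes 6 could be tested, with 0 higher and 1 lower with PDGF (*Adamts10*), 0 and 2 with rapamycin, 2 and 1 with cycloheximide, and 0 and 0 with TerminaTOR. *Adamts2*, which trims procollagen, was at 36.0 ± 3.26 CPM with rapamycin and 49.5 ± 6.88 CPM with PDGF alone (edgeR adjusted p = 0.00455), and *Adamts12* rose 2.06-fold with cycloheximide. Of 10 ADAM genes, whose products shed proteins from the cell surface, 6 could be tested, with none called with PDGF or TerminaTOR, 2 higher and 3 lower with rapamycin, and 1 and 2 with cycloheximide. *Adam19* rose 6.02-fold with rapamycin, to 188 ± 18.4 CPM against 31.3 ± 3.17 CPM with PDGF alone (edgeR adjusted p = 2.73e-28), and *Adam17*, the TNF convertase, 3.47-fold.

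Plasminogen activation and proprotein processing had 6 of 13 genes tested, with 3 higher and 1 lower with PDGF, 2 and 2 with rapamycin, 1 and 1 with cycloheximide, and 1 and 0 with TerminaTOR. *Plau*, the urokinase that turns plasminogen into plasmin, rose 2.72-fold with PDGF (69.6 ± 4.72 against 25.5 ± 3.01 CPM without). In TerminaTOR cells *Plau* was at 74.0 ± 6.82 CPM, against 44.3 ± 8.32 CPM in mCherry cells (log2 change 0.74 ± 0.13 SE, edgeR adjusted p = 2.84e-05). *Plat*, the tissue-type activator, rose 9.90-fold with cycloheximide (2181 ± 145 against 221 ± 10.3 CPM with PDGF alone). Of 11 cathepsin genes 5 were tested, with 2 higher with PDGF, 1 lower with each of rapamycin, cycloheximide and TerminaTOR, and no other call. *Ctsb* was at 737 ± 14.6 CPM in TerminaTOR cells and 905 ± 59.4 CPM in mCherry cells (edgeR adjusted p = 0.000174).

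Of 22 genes for matrix proteins that these enzymes cut, 14 could be tested, with 7 higher and 3 lower with PDGF, 7 and 6 with rapamycin, 1 and 8 with cycloheximide, and 5 and 1 with TerminaTOR. The shares of all genes called higher and lower were 20.1% and 16.9% with PDGF and 16.3% and 16.1% with rapamycin. They were 21.0% and 19.6% with cycloheximide, and 2.35% and 2.57% with TerminaTOR. *Col1a1*, a chain of type I collagen, had 2169 ± 88.8 CPM with rapamycin and PDGF and 3683 ± 122 CPM with PDGF alone (log2 change −0.76 ± 0.05 SE, edgeR adjusted p = 8.85e-21). In TerminaTOR cells it was higher, at 5153 ± 264 CPM against 4244 ± 199 CPM in mCherry cells (0.28 ± 0.05, edgeR adjusted p = 9.47e-05), on the background where *Mmp14* and *Adamts1* were lower. *Tnc*, tenascin C, was at 197 ± 12.2 CPM with rapamycin against 48.6 ± 13.5 CPM with PDGF alone, and *Lum*, lumican, fell by 1.10 on the log2 scale in TerminaTOR cells (edgeR adjusted p = 0.00037). These lists are described by their counts, beside the shares of all genes called that are given above.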

How the data were processed

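Poly(A) RNA of 15 NIH3T3 libraries was sequenced. Per the submitters' processing notes, the tools were HISAT2 2.2.1, HTSeq 0.9.1 and R 4.1.0, with the human build hg38; which mouse build, annotation and strand setting the authors used is not stated there. The deposited files hold raw read counts for 142446 mouse transcripts. Of these, 141536 were matched to GENCODE M21 (GRCm38) after removal of the version, and counts were summed per gene identifier; the 910 others held 0.0309% of counts. Genes were filtered with filterByExpr and tested with edgeR 4.0.16 in R 4.3.3 (TMM scaling, robust quasi-likelihood F test, a mean per group over all 15 libraries, 10 residual degrees of freedom), with Benjamini-Hochberg adjustment over 10603 genes and calls at 0.05. The SE was taken as |log2 change| over the root of F; 95% intervals use it with the test's degrees of freedom. Members, lists and tests were chosen with earlier results of these data known. Named genes were all members and, per list and comparison, up to 2 called genes of largest rise and 2 of largest fall, given non-overlapping groups and an average log2 CPM from 1 upward. The genes most like a member had the highest Pearson r of log2(CPM + 1) among genes averaging a log2 CPM of 3 or more. Alternatives were RLE and library-size scaling, no filter, DESeq2 1.42.0, limma-voom (limma 3.58.1), the compared groups alone, a replicate block, transcripts as deposited, and each library left out. Replicate pairs differed by more than sampling noise (chi-square over degrees of freedom 2.53 to 7.32), so all libraries were kept apart. The procedure was tested on simulated data. A list of other protease inhibitors is not reported here.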

Additional observations from a re-analysis of the deposited data

Results flagged for a closer look

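For 4 genes the effect of rapamycin and that of TerminaTOR differed by the test of the difference itself, given as rapamycin effect minus TerminaTOR effect on the log2 scale. The value was −0.50 for *Adamts5*, −0.45 for *Timp2* and −0.22 for *Mmp2*, which were lower with rapamycin. For *Timp3*, lower in TerminaTOR cells, it was 0.34. The difference for *Mmp2* was not called when PDGF replicate 3 (edgeR adjusted p = 0.106), mCherry cycloheximide replicate 1 (0.0836) or 2 (0.0614), or TerminaTOR replicate 1 (0.052) or 3 (0.0958) was left out, and that for *Timp3* was not called without rapamycin replicate 3 (0.0851), under library-size scaling (0.169) or without a filter (0.0994). Groups of 3 libraries are too small for a test of single outlying libraries.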

How the results depend on the processing

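Over the 6 tested members other than *Mmp13*, the number called stayed within 1.5 times its main value under every alternative: 4 with PDGF (4 to 5), 5 with rapamycin (5 to 6), 4 with cycloheximide (3 to 4), 3 with TerminaTOR (3 in each), 5 with rapamycin and PDGF against no PDGF (5 to 6), 6 with cycloheximide and PDGF against no PDGF (5 to 6) and 4 for the difference of effects (3 to 4). With the replicate number as a block the counts were 4, 5, 4, 3, 5, 6 and 4, and no member's call changed; libraries with the same number correlated by −0.03 to 0.15, so the numbers are not shown to pair them. Of 624 recomputed log2 changes of these 6, 584 kept their direction and side of the threshold, 9 gained a call, 18 lost one and 13 changed sign. *Mmp13* was called higher with rapamycin in each of 14 alternatives, against PDGF alone and against no PDGF. It passed the count filter only through its rapamycin libraries, so these calls are not independent support for the rise. In comparisons without rapamycin it had 0 to 5 reads a group and its fitted sign is not read. Library-size scaling turned *Timp3* to −0.10 with PDGF, *Timp2* and *Timp3* to −0.10 and −0.08 with cycloheximide, and *Adamts1* and *Timp3* to −0.18 each with cycloheximide against no PDGF. Leaving out a library turned uncalled values near 0: *Timp2* (−0.01 to 0.05) and *Timp3* (−0.02 to 0.09) with cycloheximide, *Adamts5* with TerminaTOR (−0.04 to 0.12), *Timp3* with rapamycin against no PDGF (−0.10 to 0.10) and the *Adamts1* difference (−0.14 to 0.00). The cause was not tested. All genes called with TerminaTOR numbered 522, against 804 on the compared groups alone and 308 to 340 without mCherry replicate 1 or 3 or TerminaTOR replicate 1 or 3. Depth limits *Mmp3* and *Mmp13*, for which 3 counts over a group correspond to 0.194 to 0.271 CPM.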
